A study of Homo sapiens with 13 samples.

Results

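The interleukin 1 (IL1) family was followed in human osteoblasts through 9 genes: the ligands IL1A, IL1B, IL18 and IL33, the receptor antagonist IL1RN, the receptor chains IL1R1, IL1RAP and IL1RL1, and the protease CASP1. They were taken by symbol from a table of 43836 genes, and all 9 had a row. The cells were hFOB 1.19, a line of immortalized human fetal osteoblasts, so that every library came from 1 cell line. Positive controls (PC) were grown with 10% fetal bovine serum (FBS) and negative controls (NC) without it, both with the DMSO vehicle per the study's methods. The other 3 groups were kept in serum-free medium with a compound at 1 µg/mL. RES was resveratrol, a stilbene, and POG was peonidin-3-O-glucoside, an anthocyanin. The label DEG was not spelled out, and the treatment protocol names delphinidin-3-glucoside beside the other compounds. The labels gave 1 dose per compound and no time, and nothing in them says that libraries of a group came from separate cultures. The p-values therefore measure the spread between these libraries, which may be technical.

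IL1A and IL1B signal through IL1R1, which needs the accessory chain IL1RAP to pass the signal on. IL1RN occupies IL1R1 without signalling. IL1B and IL18 are made as inactive precursors that CASP1, the protease of the inflammasome, cuts to their active form, whereas IL33 signals through IL1RL1 together with IL1RAP. In bone, IL1 is known for raising the output of cytokines, prostaglandins and matrix proteases from osteoblasts and for promoting bone resorption by osteoclasts.

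The 12 libraries comprised 2 PC, 2 NC, 3 RES, 3 POG and 2 DEG libraries, each with 38464619 to 51416358 counted reads. Levels are given as CPM, that is reads per library brought to the same total after TMM correction for library composition, and ± is the SD over libraries. Scaled so that 1 stands for pure sampling noise, the mean squared difference between libraries of a group was 2.07 to 2.67 in 8 pairs and 11 in the PC pair. Among 10 osteoblast markers COL1A1, COL1A2 and SPARC were abundant, and the list summed to 4752 to 5525 CPM per library. These matrix genes made up almost all of the sum. RUNX2 averaged 47.8 CPM over the libraries, whereas ALPL, SPP1, BGLAP and DLX5 averaged only 4.54, 1.64, 1.25 and 1.16 CPM. The osteoblast genes IBSP and SP7 had only 1 and 53 reads over all libraries together. Myeloid cells are a major source of IL1B. Of 8 myeloid markers TYROBP had 0 reads and PTPRC at most 7 per library, while CD14 had 12 to 68 and CSF1R 58 to 152 reads per library.

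Most of the family lies on chromosome 2. In hg38, IL1A spans chr2:112773925-112784493 and IL1B chr2:112829751-112836816, both on the minus strand, with IL1RN at chr2:113099315-113134016 on the plus strand. IL1R1 (chr2:102064544-102179874) and IL1RL1 (chr2:102311502-102352037) lie on the plus strand. IL1RAP is at chr3:190514051-190659750, IL33 at chr9:6215786-6257983, IL18 at chr11:112143253-112164096 and CASP1 at chr11:105025397-105035250. IL1RL1 and IL18R1 share 95 exonic bases on the same strand, and IL1R1 shares 11 exonic bases with the antisense gene IL1R1-AS1. The strand setting used in counting was not stated, so reads in such stretches cannot be assigned with certainty.

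The promoters of IL1A, IL1B and IL1R1 are shown because these ligand genes and the gene of their receptor changed in opposite directions with serum. The sequences run from 250 bases before to 50 bases after the annotated start, taken from RefSeq on GRCh38.p14, at chr2:112784444-112784743 (minus strand), chr2:112836730-112837029 (minus strand) and chr2:102142496-102142795 (plus strand). Capitals mark matches to the AP-1 motif TGANTCA, searched on both strands.
IL1A: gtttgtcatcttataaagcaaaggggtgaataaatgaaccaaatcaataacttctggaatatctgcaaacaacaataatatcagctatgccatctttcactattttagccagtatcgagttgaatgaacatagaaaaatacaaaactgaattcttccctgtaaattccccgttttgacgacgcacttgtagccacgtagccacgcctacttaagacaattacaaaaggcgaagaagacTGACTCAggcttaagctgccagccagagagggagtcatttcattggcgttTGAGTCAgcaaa
IL1B: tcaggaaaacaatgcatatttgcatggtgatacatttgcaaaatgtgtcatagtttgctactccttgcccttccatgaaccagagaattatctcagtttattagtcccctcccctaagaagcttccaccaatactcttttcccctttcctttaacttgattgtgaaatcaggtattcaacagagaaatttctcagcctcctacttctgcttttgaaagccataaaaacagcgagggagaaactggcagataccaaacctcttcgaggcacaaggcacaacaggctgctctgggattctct
IL1R1: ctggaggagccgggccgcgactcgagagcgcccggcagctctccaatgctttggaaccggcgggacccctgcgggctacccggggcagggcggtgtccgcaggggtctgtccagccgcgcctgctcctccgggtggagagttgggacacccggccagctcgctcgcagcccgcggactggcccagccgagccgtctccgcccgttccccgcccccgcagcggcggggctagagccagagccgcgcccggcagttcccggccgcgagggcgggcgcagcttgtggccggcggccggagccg
The IL1A window held AP-1 matches starting at positions -12 and 39 from the start, and the IL1B and IL1R1 windows held none. Among 35093 promoter windows of this length, 7.71% held a match. The C/EBP motif TTNNGNAA had 3 matches in the IL1B window, 2 in the IL1A window and 0 in the IL1R1 window, and was found in 36.8% of all windows. TATAAA had 1 match, in the IL1A window at position -239, and was found in 11.5% of all windows. The NF-kB, CRE and SRF motifs were also searched and had 0 matches in each printed window. They were found in 5.9%, 1.85% and 1.29% of all windows. GC content was 39.7% for IL1A, 42.3% for IL1B and 77.7% for IL1R1. IL1R1 had 4 annotated windows, of which the one at the start of its canonical transcript is printed, and which start the cells used was not measured. A match is a description of the letters and not evidence of binding.

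Levels per kb of longest transcript allow the genes to be compared with each other. IL1B was the most abundant member in every group, at 598 ± 25.4 CPM per kb in PC (n = 2) and 196 ± 0.0708 in NC (n = 2). IL1R1 followed in the groups without serum, at 32.6 ± 0.623 in NC (n = 2), whereas in PC it stood at 18.6 ± 0.165 and IL1A at 22.3 ± 1.96 (n = 2). CASP1 lay between 7.09 and 9.65 CPM per kb and IL1RAP between 5.69 and 6.23 across the group means. IL18 and IL1RN were low, with group means of 0.744 to 1.43 and 0.567 to 0.683 CPM per kb. IL33 and IL1RL1 stayed under 0.1 CPM per kb in every group. The ratio of IL1B to IL1A per kb was 26.9 ± 1.22 in PC (n = 2), 44.4 ± 5.77 in NC (n = 2), 42.9 ± 2.47 in RES (n = 3), 31.7 ± 0.349 in POG (n = 3) and 32.1 ± 0.455 in DEG (n = 2).

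**Figure D1:**
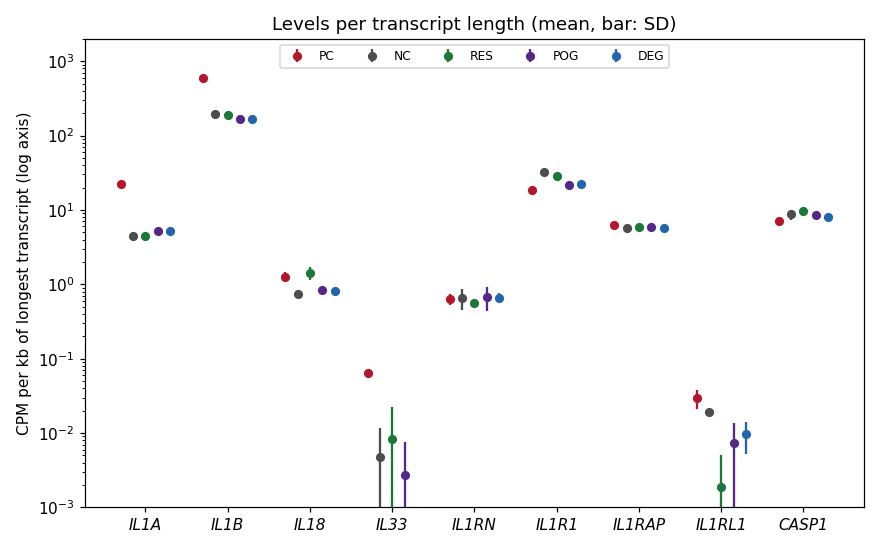
Group means of the 9 members in CPM per kb of longest transcript on a log axis, with SD bars; bars that would reach 0 run off the axis, and IL33 in DEG is not drawn because both libraries had 0 reads. IL1B, at 598 CPM per kb in PC and 196 in NC, stands above every other member in all groups.

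Differences were tested with the edgeR exact test over the 17092 genes that had enough reads, and those with a false discovery rate (FDR) under 0.05 are referred to as called. Of the 9 members 7 entered the test, and IL1RL1 and IL33 had too few reads. Each of the 4 comparisons against NC used the same 2 NC libraries. The spread was estimated over all groups together, so tests with PC do not carry the full difference between its 2 libraries. In bulk RNA, a change in the share of expressing cells and a change in RNA per expressing cell cannot be told apart.

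With serum, the ligand genes IL1A, IL1B and IL18 rose, and the receptor gene IL1R1 and the protease gene CASP1 fell. In all, 5 of 7 tested members were called, 3 higher and 2 lower, against 42.4% of all genes tested, and with 7 genes such a share is only a description. IL1A was at 47.8 and 42.2 CPM in the PC libraries and 9.79 and 8.15 in the NC libraries, an increase of 2.33 on the log2 scale (SE 0.0839, FDR 1.64e-157). In the edgeR quasi-likelihood test the FDR of IL1A was 5.5e-20. IL1B was at 997 and 939 CPM with serum and 317 and 317 without it, 1.61 higher on the log2 scale (SE 0.0335), with an FDR of 5.78e-26 in the edgeR quasi-likelihood test and below the smallest storable number in the exact test. The groups stood apart for both ligands, and IL1R1 moved the other way. IL1R1 was at 95.7 and 96.9 CPM in PC and 171 and 167 in NC, and fell by 0.81 (SE 0.036, FDR 2.64e-93). The ratio of IL1B to IL1R1 per kb was 31.0 and 33.4 in the PC libraries and 5.92 and 6.09 in the NC libraries.

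The other members changed less with serum. IL18, whose product acts on T and NK cells, rose by 0.75 (SE 0.24, FDR 0.0058) from 1.26 ± 0.150 to 2.14 ± 0.331 CPM (n = 2 each), on 99 reads in NC and 194 in PC. CASP1 was at 17.9 and 17.6 CPM in PC and at 19.5 and 24.1 in NC, and fell by 0.30 (SE 0.0848, FDR 0.0019). The accessory chain IL1RAP was at 33.8 ± 1.27 CPM in PC and 31.1 ± 2.19 in NC (log2 difference 0.12, 95% interval 0.001 to 0.24, FDR 0.0934). Its PC and NC libraries did not overlap, and the log2 difference was 0.17 without PC replicate 1 and 0.20 without NC replicate 1. The antagonist IL1RN was at 1.35 ± 0.235 CPM in PC and 1.42 ± 0.441 in NC (log2 difference -0.06, interval -0.67 to 0.55, FDR 0.931). Without NC replicate 2 the calls for IL18 (FDR 0.0942) and CASP1 (log2 difference -0.13, FDR 0.341) were lost, and without PC replicate 2 that for IL18 (FDR 0.0721).

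IL33, an alarmin released from damaged cells, had 9 and 7 reads in the PC libraries and 1 and 0 in the NC libraries. The ratio of reads was 13.7 with a 95% interval of 2.13 to 575, which covers counting error only. Without the filter on low counts, the edgeR exact test gave an FDR of 0.129 for this difference. The RES libraries held 0, 3 and 0 reads of IL33, the POG libraries 1, 0 and 0, and the DEG libraries 0 and 0. For its receptor gene IL1RL1 the PC libraries held 7 and 4 reads, the NC libraries 3 and 3, and no library given a compound more than 2. The PC to NC ratio for IL1RL1 was 1.57 (interval 0.533 to 5.17).

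**Figure D2:**
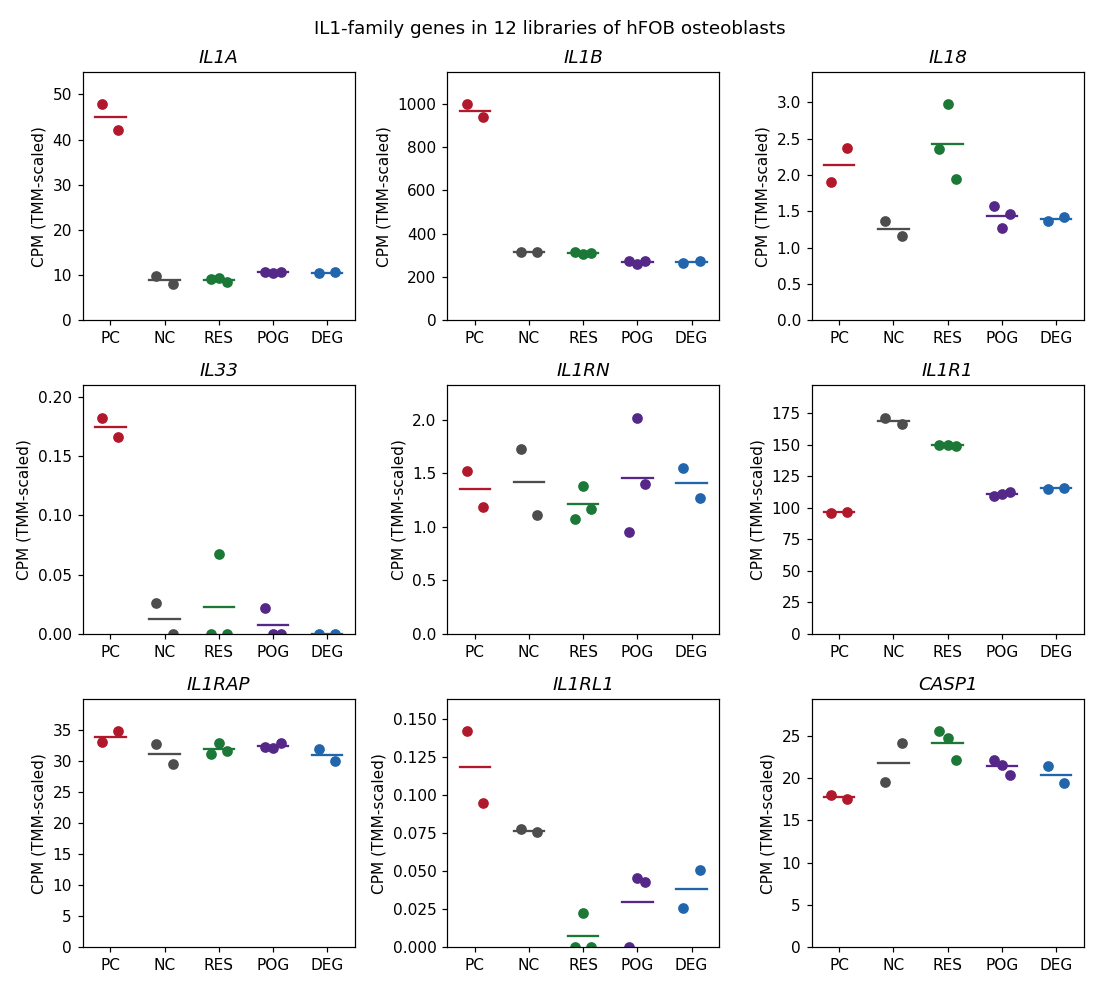
CPM of each member in the 12 libraries (points) with the group mean (line), each panel with its own linear axis from 0. IL1A and IL1B are highest in the 2 PC libraries, IL1R1 is highest in the 2 NC libraries, and IL33 and IL1RL1 rest on at most 9 and 7 reads per library.

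The compounds addressed whether serum-starved cells given RES, POG or DEG differ from untreated starved cells. IL1R1 fell with each of them. It stood at 150, 150 and 149 CPM in the RES libraries, 109, 111 and 113 in POG, and 115 and 116 in DEG, against 171 and 167 in NC. None of these libraries reached the NC values. On the log2 scale the difference was -0.18 for RES (SE 0.032, FDR 1.9e-05), -0.61 for POG (SE 0.0322, FDR 1.69e-63) and -0.55 for DEG (SE 0.0359, FDR 4.61e-42). These calls stood under each of the 12 or 13 alternatives of scaling, filter, dispersion, test, threshold and left-out library.

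IL1B, the main ligand of the set, fell with POG and DEG. It was at 272, 262 and 275 CPM in POG and 267 and 276 in DEG, with NC at 317 in both libraries, so the groups did not overlap. The log2 difference was -0.23 for POG (SE 0.0304, FDR 5.75e-09) and -0.22 for DEG (SE 0.0336, FDR 1.1e-06). With RES, IL1B was at 314, 305 and 311 CPM, and its difference of -0.03 (interval -0.09 to 0.03) had an FDR of 0.686.

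IL1A was at 10.7, 10.5 and 10.7 CPM in POG and 10.5 and 10.6 in DEG, above both NC libraries. Its rise of 0.25 with POG passed the test (SE 0.0877, FDR 0.0452), while the value of 0.23 for DEG did not (FDR 0.134). The POG call was lost under 8 of 13 alternatives, among them the edgeR quasi-likelihood test (FDR 0.0619), DESeq2 (FDR 0.0754) and the omission of NC replicate 2 (log2 difference 0.12, FDR 0.635) or of POG replicate 1, 2 or 3 (FDR 0.104, 0.0706 and 0.112). In RES, IL1A was at 9.17, 9.39 and 8.55 CPM, within the NC range.

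IL18 rose with RES. Its libraries held 105, 133 and 87 reads, or 2.36, 2.97 and 1.95 CPM, against 1.37 and 1.16 CPM in NC, a rise of 0.94 (SE 0.22, FDR 0.000549) that was lost without NC replicate 2 (FDR 0.0647). In POG and DEG IL18 was at 1.58, 1.27 and 1.46 CPM and at 1.37 and 1.42 CPM, and neither passed the test against NC (FDR 0.721 and 0.866). IL1RAP, IL1RN and CASP1 were not called against NC with any compound. CASP1 with RES was called without NC replicate 2 (log2 difference 0.31, FDR 0.0175), whose CASP1 level of 24.1 CPM lay above the 19.5 CPM of the other NC library. Of the 7 tested members RES had 2 calls (11.2% of all genes were called), POG 3 (14.6% of all genes) and DEG 2 (9.64% of all genes).

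**Figure D3:**
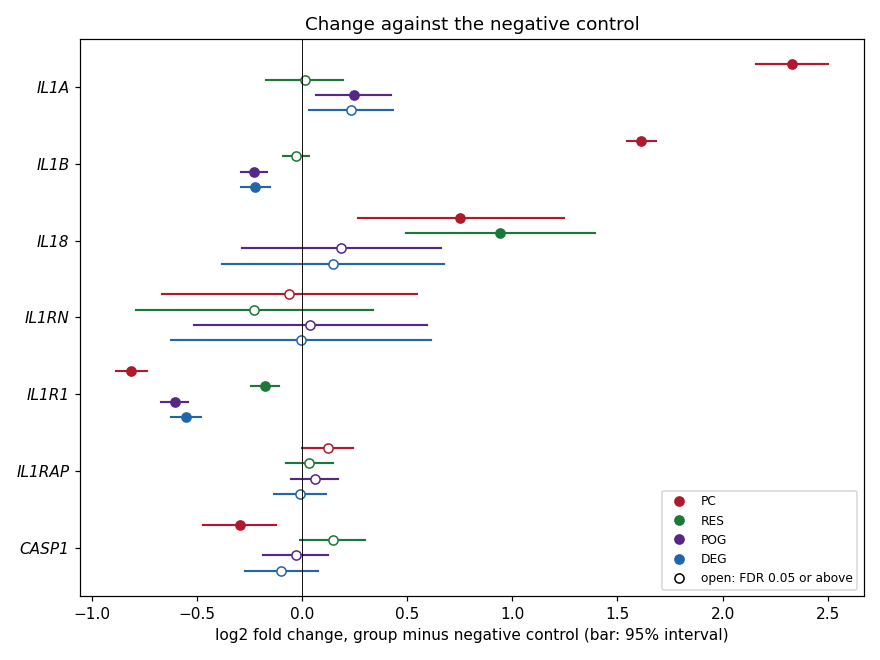
Log2 fold change of each tested member against NC, with 95% intervals from the quasi-likelihood fit; filled points had an FDR under 0.05. IL1R1 lies below 0 in all 4 comparisons, from -0.18 with RES to -0.81 with serum, and IL1B lies above 0 with serum and below 0 with POG and DEG.

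The compounds were compared directly at their common dose, in 3 pairs, and FDRs were taken over all genes within each pair. POG differed from RES in 5 of 7 tested members (27.9% of all genes), with IL1A higher and IL1B, IL1R1, IL18 and CASP1 lower. The log2 difference was -0.43 for IL1R1 (SE 0.0291, FDR 2.1e-39) and -0.20 for IL1B (SE 0.0273, FDR 8.49e-09). For IL18 it was -0.75 (SE 0.185, FDR 0.000346), or 1.69-fold lower. The differences in IL1A (0.23, FDR 0.0131) and CASP1 (-0.18, FDR 0.0355) were small, and the CASP1 call was lost under 6 of 14 alternatives. The IL1A call was lost without RES replicate 3 (FDR 0.0922).

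DEG differed from RES in 4 of 7 members, all lower in DEG, against 21.2% of all genes. The log2 differences were -0.38 for IL1R1 (SE 0.033, FDR 4.27e-23), -0.19 for IL1B (SE 0.0308, FDR 2.67e-06), -0.80 for IL18 (SE 0.216, FDR 0.00215) and -0.25 for CASP1 (SE 0.0764, FDR 0.0109). The CASP1 call was lost without DEG replicate 2 (FDR 0.281), RES replicate 1 (FDR 0.0814) or RES replicate 2 (FDR 0.0531), and that of IL18 without DEG replicate 1 (FDR 0.0552). Between DEG and POG 0 of 7 members were called by the edgeR exact test, its quasi-likelihood test or DESeq2, and 0 had an unadjusted p under 0.05, while 1.07% of all genes were called. The 95% intervals of the DEG minus POG difference were -0.01 to 0.12 for IL1R1, -0.05 to 0.07 for IL1B, -0.19 to 0.16 for IL1A and -0.51 to 0.43 for IL18, and the differences of these 4 genes between POG and RES were larger than any value inside them.

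**Figure D4:**
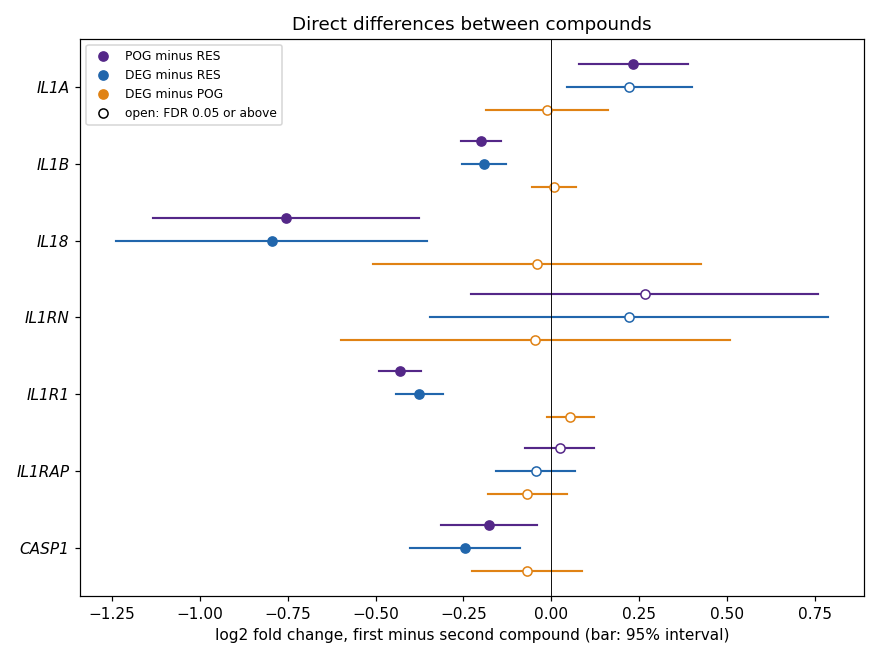
Log2 differences between compounds for the 7 tested members, with 95% intervals; filled points had an FDR under 0.05. The DEG minus POG intervals all include 0, and IL1R1, IL1B and IL18 lie below 0 in POG minus RES and DEG minus RES.

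The order of the group means of IL1R1 was NC, RES, DEG, POG and PC, and of these neighbours only DEG and POG were not called (FDR 0.64). For IL1B the order was PC, NC, RES, DEG and POG, and neither NC and RES (FDR 0.686) nor DEG and POG (FDR 0.985) were called. A missing call does not show equal levels. The libraries did not overlap for IL1R1 in DEG and POG or for IL1B in NC and RES. PC was compared with each compound to place it in these orders: 4 members were called against RES, 5 against POG and 5 against DEG, with 45.7%, 47.9% and 43.5% of all genes. IL1R1 in PC lay below POG, its neighbour in the order, by a log2 difference of -0.21 (FDR 1.09e-07).

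The pathway around the members was read from 5 lists of other genes. Of 26 tested genes that IL1 typically induces, 22 were called with serum, 13 higher and 9 lower, with a median log2 difference of 0.16. With POG 20 were called, 2 higher and 18 lower (median -0.29), and with DEG 21, 2 higher and 19 lower (median -0.35). With RES 13 were called, 4 higher and 9 lower (median -0.09). Of all genes tested, 42.4% were called with serum, 14.6% with POG, 9.64% with DEG and 11.2% with RES, and their median lay within 0.01 of 0. Leaving out each library in turn gave 20 to 21 calls with serum, 20 with POG, 19 to 21 with DEG and 10 to 13 with RES, and these alternatives were chosen after seeing the data. The list does not measure IL1 signalling, since many other stimuli induce the same genes. It was chosen with earlier results of these data known, so its share of calls beside that of all genes is only a description. Smaller changes are called in genes with more reads, and levels in the list ran from 0.497 CPM (VCAM1) to 985 CPM (IL6) in NC.

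PTGES, the inducible prostaglandin E synthase, was at 60.6 and 57.8 CPM in PC and 12.4 and 11.8 in NC (log2 difference 2.29, FDR 8.69e-261). It was at 21.9, 20.5 and 21.1 CPM in RES, which was 0.81 above NC (FDR 1.3e-28). In POG PTGES was at 7.46, 7.69 and 7.34 CPM, so it was lower in POG than in RES (-1.50, FDR 8.82e-121). The matrix protease MMP3 was at 11.9 and 12.6 CPM in NC and between 4.26 and 5.74 CPM in every library given a compound. MMP3 was also lower with serum, at 5.93 and 5.55 CPM in the PC libraries (log2 difference -1.09 against NC, FDR 1.23e-20). It was 2.22-fold lower with RES, 2.45-fold with POG and 2.6-fold with DEG (FDR 1.21e-26, 2.4e-33 and 3.01e-28). The neutrophil chemokine CXCL3 fell by 0.82 with POG (FDR 1.17e-44), 0.88 with DEG (FDR 3.24e-40) and 0.23 with RES (FDR 0.000682). With serum CXCL3 rose by 0.98 (FDR 6.88e-65). CCL7, a monocyte chemokine, fell by 0.94 with RES (FDR 3.16e-11) and 0.39 with serum (FDR 0.011). It was not called with POG or DEG (FDR 0.811 and 0.203).

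Among other receptors and decoys 5 genes were tested, with 4 called in PC (42.4% of all genes), 2 in RES (11.2%), 2 in POG (14.6%) and 1 in DEG (9.64%), and DESeq2 called 0 of them in RES. IL18R1, the ligand-binding chain for IL18, was at 2.94 and 3.92 CPM in NC and no higher than 2.51 CPM in any other library. It fell by 1.24 with serum (FDR 4.38e-08), 0.57 with RES (FDR 0.0212), 0.90 with POG (FDR 3.32e-05) and 0.86 with DEG (FDR 0.00122). The RES call was lost in DESeq2 (FDR 0.0569) and without NC replicate 2 (FDR 0.472), RES replicate 2 (FDR 0.0559) or RES replicate 3 (FDR 0.109), and the DEG call without NC replicate 2 (FDR 0.138) or DEG replicate 2 (FDR 0.132). IL18BP, which binds and neutralizes IL18, was higher with POG (0.22, FDR 0.00179) and lower with serum (-0.27, FDR 0.000199). SIGIRR, a receptor that dampens IL1 signalling, was higher with serum (0.46, FDR 6.69e-10). IL1RAPL1, named after its values were seen, had 7 and 19 reads in the PC libraries, 1 and 1 in NC, 5, 15 and 13 in RES, 1, 1 and 6 in POG, and 4 and 1 in DEG.

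In the 17 receptor-proximal signalling genes, 10 were called in PC (2 higher and 8 lower), 2 in RES, 1 in POG and 0 in DEG by the edgeR exact test. These are 58.8%, 11.8%, 5.88% and 0% of the list, against 42.4%, 11.2%, 14.6% and 9.64% of all genes. With DEG 1 had an unadjusted p under 0.05, and 0 were called by the quasi-likelihood test or DESeq2. IRAK3, an inhibitory kinase relative of the pathway, was at 5.44 and 5.36 CPM in PC and 11.8 and 10.9 in NC, and fell by 1.07 (FDR 3.36e-24), while the kinase IRAK1 rose by 0.46 (FDR 9.67e-24). Of 10 inflammasome and processing genes 5 were called in PC, 1 in RES, 2 in POG and 1 in DEG, or 50%, 10%, 20% and 10%, which is near the shares of all genes. CARD8, an inflammasome sensor, was at 54.0, 52.7 and 52.4 CPM in RES and 43.6 and 41.7 in NC, 0.31 higher (FDR 9.26e-10). The calcium-dependent protease CAPN1, whose family cuts the IL1A precursor, rose by 0.32 with serum (FDR 2.4e-11). Of the other ligands and antagonists, IL36G and IL37 were tested and neither was called in any comparison by edgeR or DESeq2 or had an unadjusted p under 0.05, and IL36A and IL1F10 had 0 reads.

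**Figure D5:**
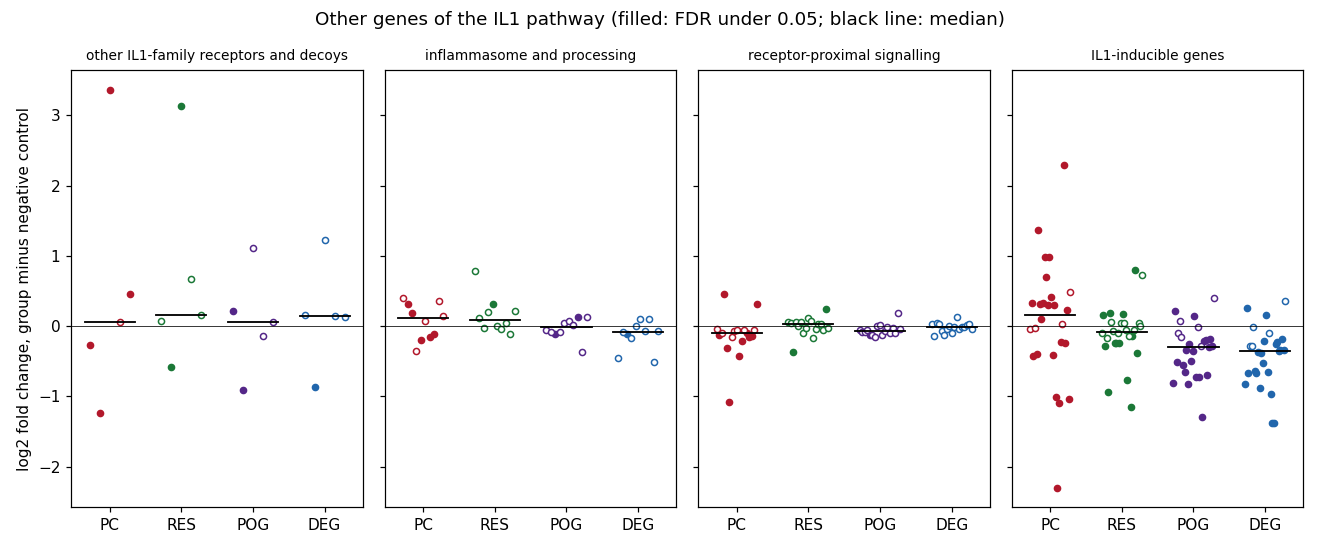
Log2 fold change against NC of the genes in 4 pathway lists; filled points had an FDR under 0.05 and the black line is the list's median. In the IL1-inducible list most genes lie below 0 with POG (18 called lower) and DEG (19 called lower).

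Markers of other cell types were read beside these results. Summed over 8 myeloid markers, libraries held 4.34 to 4.71 CPM in PC, 3.39 to 3.95 in NC, 3.64 to 3.88 in RES, 2.72 to 3.20 in POG and 2.53 to 2.75 in DEG, and CD14 and CSF1R made up most of it. The osteoblast list, almost all of it COL1A1, COL1A2 and SPARC, summed to 5463 to 5525 CPM in PC, 5264 to 5322 in NC, 4908 to 5036 in RES, 4752 to 4788 in POG and 4764 to 4771 in DEG. Epithelial markers, almost all of it KRT8 and KRT18, summed to 464 to 506 CPM in PC, 397 to 406 in NC, 443 to 454 in RES, 338 to 348 in POG and 364 to 369 in DEG, with KRT5 at 11 reads in all. Endothelial markers, mostly TEK, summed to 58.3 to 61.7 CPM in PC, 45.4 to 47.6 in NC, 57.6 to 65.5 in RES, 38.6 to 40.8 in POG and 41.1 to 41.6 in DEG, with CDH5 at 16 reads in all. The lymphoid and mast cell list summed to 2.04 to 2.31 CPM in PC, 2.09 to 2.16 in NC, 1.77 to 2.06 in RES, 1.08 to 1.43 in POG and 0.646 to 1.65 in DEG, with CD3E, CD2, MS4A1 and TPSAB1 at 0 reads. The part of these shifts in the results was not tested.

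Similar patterns were described by the Pearson correlation of log2 CPM over the 12 libraries, which share the serum contrast, among genes with at least 1 CPM on average. IL1A was most like GNB1 (r = 0.994), ECI2 and HSPA8, and IL1B most like COTL1 (r = 0.996), HMGA1 and NCL. For IL1R1 the closest genes were pyruvate carboxylase (gene symbol PC, no relation to the group name; r = 0.977), LAMB1 and GGT5. IL18 was most like ELFN2 (r = 0.908), ADGRG6 and MMP14, and CASP1 most like SCPEP1 (r = 0.937), NRROS and SLC25A28. The values for IL1RAP (ME2, r = 0.841, then KNOP1 and EXOSC6) and IL1RN (PPP1R26, r = 0.829, then SYCP2L and PLCB3) were lower.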

How the data were processed

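mRNA was sequenced as read pairs. The deposited table holds whole-number read counts for each gene, not normalized, which per the study's methods and the submitters' processing notes came from alignment to hg38 with STAR and counting with featureCounts; versions and strand setting are not given in the sources used here. Of 13 labelled samples, 12 had a column of counts. DEG replicate 3 had none and so was not analysed here. Replicate numbers follow accession order and served as names only.

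Libraries were scaled by TMM and filtered with filterByExpr, and dispersions were estimated over all 12 libraries in edgeR 4.0.16 (R 4.3.3). The exact test was used, with Benjamini-Hochberg adjustment over 17092 genes that held 99.967% of the reads. Standard errors and 95% intervals came from edgeR's quasi-likelihood fit, so they can differ slightly from the exact test. Symbols matched 43141 of 43836 rows. The test was run on simulated counts with the same dispersion in all libraries and large planted changes. That run does not cover the wider spread between the PC libraries or smaller changes. Coordinates and lengths came from GENCODE v44. The alternatives included DESeq2 1.42.0.

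Named genes were all 9 members and, from the 5 lists and in each comparison, up to 3 called genes with the largest absolute change and at least 1 CPM; some are counted but not named. The 3 most correlated genes were taken for each member with at least 1 CPM. Members and lists were chosen with earlier results of these data known.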

Additional observations from a re-analysis of the deposited data

How the results depend on the processing

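No direction of a called member reversed under any alternative. Of the alternative values for members, 849 kept their side of the threshold, 40 lost a call and 5 gained one; for other pathway genes 1035 kept it and 86 lost a call. Leaving out each library in turn gave 3 to 6 called members for PC against NC (5 with all libraries), 4 to 5 for POG against RES and 3 to 5 for PC against DEG (5 with all libraries). The lowest PC against NC count came without NC replicate 2, and the lowest PC against DEG counts without PC replicate 2 and without DEG replicate 1. At an FDR under 0.01, POG against RES kept 3 of 5 calls and PC against DEG 3 of 5, and DESeq2 also gave 3 for PC against DEG. Of the IL1-inducible genes, 0 to 2 were called between DEG and POG without 1 library, against 3 with all. Scaling by library totals alone left the direction counts of the members the same in all 10 comparisons, and shifted the median of all genes by at most 0.07 in size (-0.0703 for PC against RES), while the share of higher calls among all genes moved from 44.1% to 64% for RES against NC, from 41% to 56% for POG and from 36.6% to 49.4% for DEG. For the lists, PC against POG moved from 23 higher and 12 lower to 21 and 19. No paired analysis was possible because the columns carry no replicate numbers. With 2 or 3 libraries per group, 1 library decided several calls of IL18, CASP1 and IL1A. IL33 and IL1RL1 were limited by depth, with at most 9 and 7 reads per library.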
